A study of Canis lupus familiaris with 18 samples.

Results

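Gonadal and subcutaneous fat of the 4 lean control dogs were compared within each dog, with 1 expression array per depot and dog. The 8 arrays, of 18 in the series, are those whose titles carry the control label, and each gonadal array was set against the subcutaneous array with the same animal number, for dogs 1, 3, 4 and 9. All animals were intact female beagles, 4 years old, and received the same commercial diet, Purina Pro Plan Performance Formula. Control dogs were given enough to hold their starting body weight for 24 weeks, and 5 other dogs ate ad libitum over the same time. Fat was taken after an overnight fast and RNA came from whole tissue, so every value is a mixture over all cells of the piece of fat sampled. In such samples fewer cells of a type and less RNA per cell cannot be told apart. The comparison asks how a visceral and a subcutaneous depot differ in dogs that stayed lean.

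Subcutaneous fat lies under the skin, and gonadal fat in a female lies in the abdomen around the reproductive tract. White fat of either kind is built from adipocytes, which store triglyceride, and from a stroma of fibroblast-like progenitors, vessels, immune cells and extracellular matrix. Fat of the abdominal cavity also carries a covering of mesothelium, a simple squamous lining that shares keratins with epithelia. Depots arise from different parts of the embryonic mesoderm, and adult fat keeps depot-specific patterns of developmental transcription factors such as the HOX genes.

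Adipocyte transcripts were high in all 8 arrays. The adiponectin gene ADIPOQ stood between 13.84 and 15.56 on the log2 scale, and the mean level of 30 adipocyte genes lay at 10.29, 9.41, 9.88 and 10.56 in subcutaneous fat and at 11.13, 9.74, 11.45 and 10.53 in gonadal fat. Values per dog are given throughout in the order of dogs 1, 3, 4 and 9, and where 2 such series follow each other the subcutaneous levels come first. Of the 18 arrays, 4 stood apart by transcripts of another tissue, and 2 of these belong to control dogs. The subcutaneous array of dog 3 carried skeletal muscle transcripts, with a list mean 5.76 log2 units above the median array. That of dog 4 carried muscle transcripts (4.47 above) and transcripts of ciliated epithelium (3.30 above). It also carried simple epithelium, at a list mean of 9.37 against 4.17 to 4.72 in the other 3 subcutaneous arrays. The other 2 are gonadal arrays of ad libitum dogs, dog 2 with muscle (4.95 above) and dog 6 with ciliated epithelium (4.52 above). Of the ovary and steroid-making genes, 17 missed the filter on low values, and 15 of these stayed below log2 4 in all 8 arrays, among them STAR, CYP11A1 and CYP17A1, which take part in making steroid hormones (at most 3.05, 3.25 and 2.58). The other 2, the inhibin subunits INHBA and INHA, reached 4.74 and 4.33. The 3 tested members were SCARB1, a lipoprotein receptor also found on fat cells, the nuclear receptor NR5A2 and the oocyte factor GDF9, and none passed (limma, 2 at an unadjusted p under 0.05), with a mean level of 6.42, 5.60, 6.39 and 7.00 in subcutaneous and 6.04, 5.72, 5.56 and 6.36 in gonadal fat. The actin 3' minus 5' signal, a reading of how far labelling had run along the RNA, was 4.75 ± 1.02 (SD, n = 4) in subcutaneous and 2.91 ± 0.91 in gonadal fat, a log2 difference of -1.84. It was lower in gonadal fat in 4 of 4 dogs, and an exact two-sided sign-flip permutation over 4 pairs gave p = 0.125, the smallest it can give. With the other 5' actin probe set the difference was -0.75, again lower in 4 of 4 dogs (exact p = 0.125), and for GAPDH it was -0.20, lower in 2 of 4 dogs (exact p = 0.5). Only the subcutaneous samples are labelled as submitted before, with another series, and a difference between array batches therefore cannot be told apart from one between depots.

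**Figure D1:**
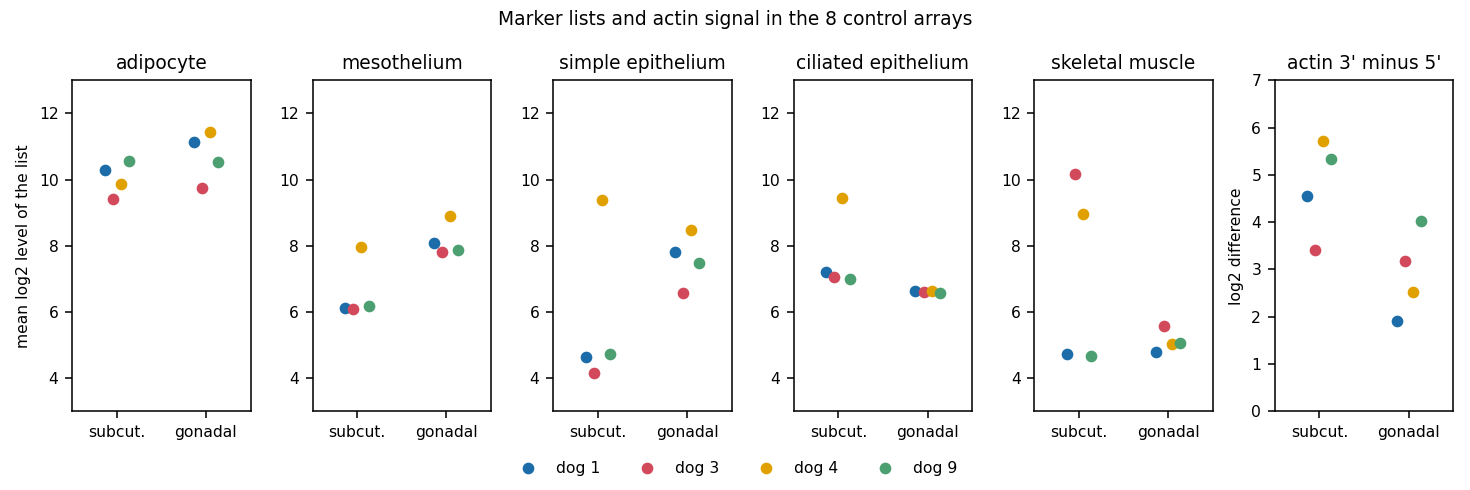
Mean log2 level of 5 marker lists in each of the 8 control arrays, and the actin 3' minus 5' log2 difference, with points coloured by dog. Dogs 3 and 4 carried muscle transcripts in subcutaneous fat, at list means of 10.18 and 8.95 against 4.66 to 5.57 in the other 6 arrays, and the subcutaneous array of dog 4 reached 9.37 for simple epithelium.

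Between the depots 821 of 21484 probe sets tested differed (3.82%), 320 higher and 501 lower in gonadal fat (limma with a term for each dog, Benjamini-Hochberg adjusted p under 0.05, called a pass from here on). With 1 probe set per gene, 332 of 8656 genes passed (3.84%), of which 133 were higher (1.54%) and 199 lower (2.3%) in gonadal fat. Every one of the 332 had the same sign in 4 of 4 dogs, and in 285 the 4 gonadal arrays did not overlap the 4 subcutaneous ones, as they also did not in 1135 of all genes tested (13.1%). The median log2 difference was 1.5 among the higher genes and -1.61 among the lower ones, against 0.02 over all genes. In 43 higher and 69 lower genes the difference was over 2 log2 units. Where another probe set of a called gene was tested (184 genes), 90 had a second one called the same way and 0 had one called the opposite way.

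The number of calls moved with the arrays in the fit. The probe sets that passed numbered 182 without dog 1, 184 without dog 3, 377 without dog 4 and 562 without dog 9, and 44 of the 332 genes passed in every one of these fits. Leaving out the ad libitum dog 6, 7 or 8, which only share the estimate of the spread, gave 1466, 354 and 373. Without the term for the dog 627 probe sets and 213 of the 332 genes passed. Among the called genes described here, those that did not pass without it were COL1A2, FN1, VCAN, TGFBI, FAP, MMP16, SCARA5, C1S, ALDH1A1, VCAM1, RGS5, MRC1, IGFBP3, AGT, MYBPC1, IFI6, ATF4, CLDN4 and UPK3B, at adjusted p from 0.0504 to 0.151. Leaving out the 4 arrays that stood apart, again without that term, gave 341 probe sets and 103 of the 332 genes. That fit kept only dogs 1 and 9 in subcutaneous fat. With the array's actin signal as a covariate 110 probe sets passed with one 5' probe set and 0 with the other (1428 at an unadjusted p under 0.05), a choice made after these counts were known; the first left 30 of the 332 genes. In all of the fits with all arrays, without the dog term, without the 4 arrays and with the first actin covariate, 24 genes passed, 8 higher and 16 lower.

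Among genes that passed, PI3, which encodes the elastase inhibitor elafin, had the largest fall in gonadal fat, with a level 96.4-fold lower in gonadal fat. Its log2 level was 13.72, 13.74, 13.79 and 13.24 in subcutaneous fat and 6.76, 5.84, 8.30 and 7.22 in gonadal fat. No gonadal array came within 4 log2 units of any subcutaneous one, and the difference was -6.59 ± 0.41 (limma log2 difference ± standard error, adjusted p = 0.000342). TMEFF2, a membrane protein with follistatin-like domains, stood at 11.79, 12.06, 11.49 and 11.12 in subcutaneous and 6.32, 4.72, 5.44 and 5.90 in gonadal fat. All gonadal levels lay below all subcutaneous ones, with a log2 difference of -6.02 ± 0.63 (adjusted p = 0.00288). VIT, the matrix protein vitrin, stood at 9.02, 10.42, 8.22 and 9.65 in subcutaneous and 3.91, 2.82, 4.87 and 3.86 in gonadal fat. Its gonadal mean lay below log2 4, the floor used here, so its difference is a bound of at least 40.2-fold lower with the gonadal mean set to the floor (adjusted p = 0.00258).

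Of the 15 largest falls among genes that passed, 14 had depots that did not overlap, beside 285 of all 332 genes that passed and 13.1% of genes tested. CILP, a matrix protein first known from cartilage, had log2 levels of 10.71, 12.17, 10.10 and 11.05 in subcutaneous fat and 7.71, 4.88, 6.18 and 6.85 in gonadal fat, a difference of -4.60 ± 0.67 (adjusted p = 0.0108). FNDC1, a secreted protein with fibronectin type III domains, differed by -4.36 ± 0.37 (adjusted p = 0.00175), with levels of 11.40 to 12.85 in subcutaneous and 6.51 to 8.62 in gonadal fat. BCL2A1, an inhibitor of cell death, differed by -4.09 ± 0.59 (adjusted p = 0.0103). For SMPDL3A, a secreted phosphodiesterase, the log2 difference was -3.90 ± 0.68 (adjusted p = 0.0206) and for the unnamed gene LOC607467 it was -3.89 ± 0.57 (adjusted p = 0.0116). In both genes each of the 4 dogs was lower in gonadal fat.

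The gene with overlapping depots was CCBE1, which takes part in lymphatic vessel growth. Its level was 7.94, 9.29, 6.13 and 6.90 in subcutaneous and 3.25, 2.74, 3.11 and 6.41 in gonadal fat, at least 11.8-fold lower (adjusted p = 0.035), and only the gonadal array of dog 9 was above the floor. MYBPC1, a myosin-binding protein of slow skeletal muscle, had log2 levels of 7.59, 11.85, 9.97 and 9.51 and 4.44, 2.97, 6.84 and 4.55, a difference of -5.03 ± 1.15 (adjusted p = 0.0451). The subcutaneous arrays of dogs 3 and 4, which carried muscle transcripts, were its highest 2, but dogs 1 and 9 also stood higher in subcutaneous than in gonadal fat. Without the 4 arrays that stood apart, and without the dog term, 11 of the 15 still passed, CCBE1, MYBPC1, DPP4 and MMP2 being the 4 that did not. Leaving out 1 control dog ended the call of 6: BCL2A1 (adjusted p = 0.0521 without dog 1), SMPDL3A (0.088 without dog 1), SFRP4 (0.0819 without dog 3), DPP4 (0.0843 without dog 1), MYBPC1 (0.122 without dog 3) and CCBE1 (0.144 without dog 1).

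**Figure D2:**
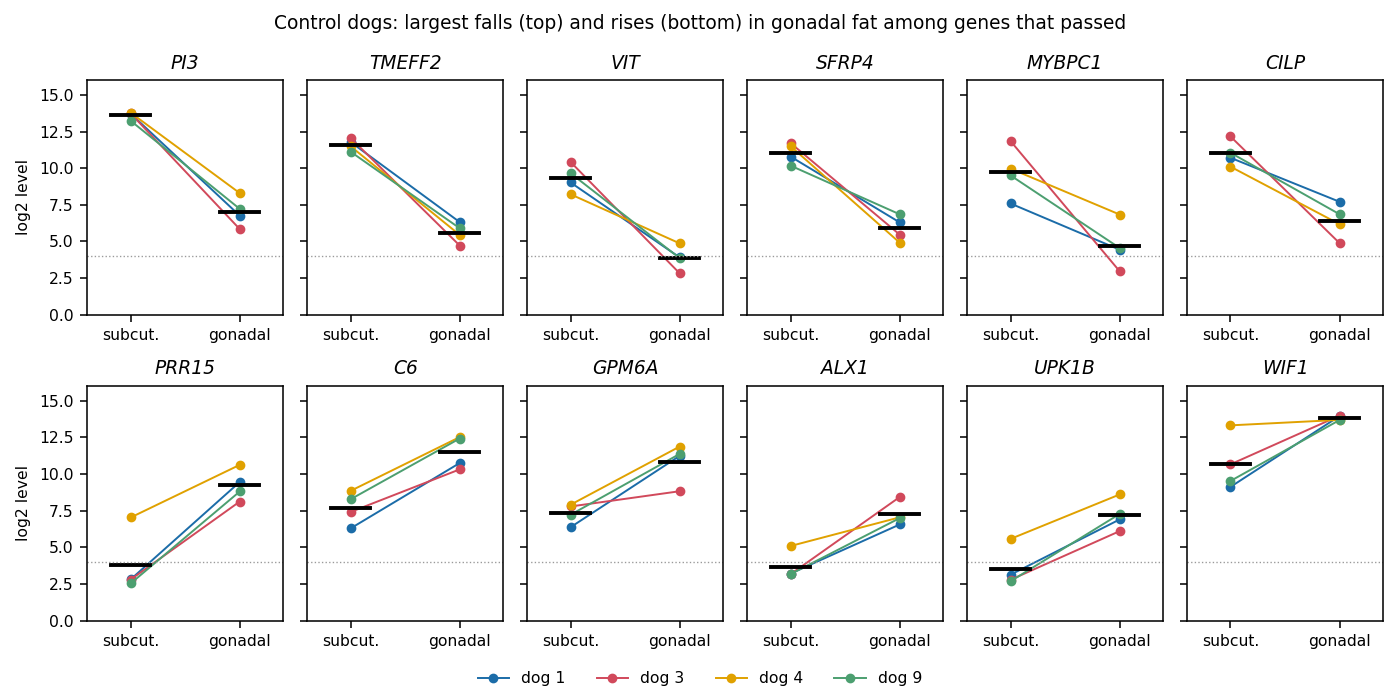
Log2 level, in each control dog, of the 6 genes with the largest falls (top row) and the 6 with the largest rises (bottom row) among genes that passed, with a line from the subcutaneous to the gonadal array of a dog, black bars at the means of 4 arrays and a dotted line at the floor of log2 4. PI3 falls from a mean of 13.62 to 7.03, and PRR15 lies at 2.54 to 2.81 in 3 subcutaneous arrays and at 7.04 in that of dog 4.

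Progenitor and stromal genes were lower in gonadal fat in 9 of 29 members tested and higher in 0 (31% called, against 3.84% of all genes), with a median log2 difference of -0.61 against 0.02 over all genes. The members did not all fall: 22 had a negative and 7 a positive difference, the highest 3.81 for SFRP2, which did not pass. This and the other lists were chosen with earlier results of these data known, so their shares beside that of all genes are descriptive. DPP4, a cell surface peptidase that marks interstitial fat progenitors, stood at 9.50, 10.55, 10.44 and 8.26 in subcutaneous and 4.13, 4.73, 4.96 and 6.77 in gonadal fat. PI16, a peptidase inhibitor of the same kind of fibroblast, stood at 10.91, 11.86, 11.23 and 11.20 and 7.50, 7.05, 7.48 and 6.42. DPP4 differed by -4.54 ± 0.78 (adjusted p = 0.0196) and PI16 by -4.19 ± 0.52 (adjusted p = 0.00601), and neither gene had overlapping depots. The secreted Wnt inhibitor SFRP4 had levels of 10.79, 11.71, 11.50 and 10.17 and 6.30, 5.47, 4.92 and 6.85, a log2 difference of -5.16 ± 0.93 (adjusted p = 0.0234). S100A4, a calcium-binding protein of fibroblasts, differed by -2.68 ± 0.51 (adjusted p = 0.0265), and SCARA5, a ferritin receptor of stromal cells, by -1.88 ± 0.39 (adjusted p = 0.0318). The adhesion molecule ICAM1, found on committed fat precursors and on endothelium, differed by -2.46 ± 0.31 (adjusted p = 0.00601). TMEFF2, MFAP5 and FBN1 complete the 9, and depots overlapped in none of them, as in 285 of all 332 genes that passed. Of the 9, 8 also passed without the dog term, 6 without the 4 arrays that stood apart, 3 with the first actin covariate (PI16, MFAP5 and SCARA5), and 3 in every fit without a control dog (TMEFF2, PI16 and ICAM1).

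Matrix glycoproteins and proteoglycans followed the same direction, with 12 of 57 members lower (21.1%, against 3.84% of all genes) and 0 higher. The median log2 difference was -0.46. Besides VIT and CILP the largest falls among those that passed were THBS4 and POSTN. THBS4, a thrombospondin of tendon and muscle matrix, stood at 8.62, 8.25, 8.22 and 8.54 in subcutaneous and 3.95, 5.28, 5.51 and 4.55 in gonadal fat, a log2 difference of -3.59 ± 0.48 (adjusted p = 0.00832). POSTN, periostin, was below the floor in all 4 gonadal arrays (2.73 to 2.95) and stood at 5.81, 8.76, 7.65 and 5.48 in subcutaneous fat, highest in dogs 3 and 4, so its fall is at least 7.6-fold (adjusted p = 0.0465). The 3 microfibril genes called were all lower in gonadal fat. FBN1, fibrillin 1, had log2 levels of 15.50, 15.45, 15.30 and 15.43 and 14.00, 12.71, 13.43 and 13.60, a difference of -1.98 ± 0.31 (adjusted p = 0.0137). MFAP5 differed by -2.66 ± 0.43 (adjusted p = 0.0152) and MFAP2 by -2.07 ± 0.41 (adjusted p = 0.0294), both parts of the microfibrils that fibrillin builds.

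VCAN, the proteoglycan versican, and TGFBI, a matrix protein induced by TGF-beta, ranged over more than 2 log2 units between dogs within each depot. VCAN stood at 9.70, 10.69, 8.21 and 9.13 and 7.23, 8.54, 6.39 and 6.55, with a log2 difference of -2.25 ± 0.30 (adjusted p = 0.00815). For TGFBI the levels were 9.31, 9.72, 7.46 and 6.94 and 7.15, 7.29, 5.58 and 4.61 and the difference was -2.20 ± 0.25 (adjusted p = 0.00433). The depots of both genes overlapped, each dog was lower in gonadal fat, and neither gene passed without the dog term (adjusted p of 0.0688 and 0.0946), while both passed in every fit without a control dog. FN1, fibronectin, also overlapped, at 13.60, 13.81, 13.50 and 13.16 and 11.74, 13.22, 11.75 and 12.17 (-1.30 ± 0.30, adjusted p = 0.0461). ECM1 (-2.46 ± 0.45, adjusted p = 0.0247) and ISLR (-1.85 ± 0.39, adjusted p = 0.0341) were lower in gonadal fat with no overlap. Of the 12 members, 9 also passed without the dog term, 6 without the 4 arrays, 4 with the first actin covariate and 5 in every fit without a control dog.

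Collagens were lower in 3 of 20 members (15%, against 3.84% of all genes) and higher in 0, with a median log2 difference of -0.32. The list was split, with 11 negative and 9 positive differences, the highest 2.57 in a member that did not pass. Without the 4 arrays and the dog term its median was -0.19. COL1A1 and COL1A2, the chains of type I collagen, differed by -2.17 ± 0.32 (adjusted p = 0.0122) and -1.35 ± 0.25 (adjusted p = 0.0265). COL1A1 stood at 14.97, 15.28, 15.13 and 14.46 in subcutaneous and 14.05, 12.63, 12.04 and 12.44 in gonadal fat, with dog 1 the highest gonadal array. COL6A1, of the collagen that surrounds fat cells, differed by -1.91 ± 0.37 (adjusted p = 0.028). The type III collagen COL3A1 did not pass, at -1.46 ± 0.39 (adjusted p = 0.0714). In the 3 collagens called the depots did not overlap, as in 285 of all 332 genes that passed. Of these 2 also passed without the dog term (COL1A1 and COL6A1), and 0 passed without the 4 arrays, with the actin covariate or in every fit without a control dog.

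Of 31 matrix proteases, inhibitors and crosslinkers, 9 were lower and 1 was higher in gonadal fat (32.3%, against 3.84% of all genes). The median log2 difference was -0.71. MMP2, gelatinase A, stood at 12.79, 13.71, 13.35 and 12.04 in subcutaneous and 10.17, 9.06, 9.18 and 8.09 in gonadal fat. The depots did not overlap and the log2 difference was -3.85 ± 0.46 (adjusted p = 0.00504). MMP27 lay at 1.91 to 2.01 in gonadal fat and at 6.15, 7.55, 6.48 and 4.62 in subcutaneous fat, at least 4.59-fold lower (adjusted p = 0.0245), and MMP16 differed by -2.14 ± 0.49 (adjusted p = 0.0455). The procollagen C-proteinase BMP1 had levels of 8.58, 8.63, 8.56 and 8.87 and 7.35, 6.74, 6.68 and 7.12 and a difference of -1.69 ± 0.21 (adjusted p = 0.00545). FAP, the fibroblast activation protein, differed by -3.01 ± 0.49 (adjusted p = 0.0163), and the collagen-cutting cathepsin CTSK by -1.80 ± 0.29 (adjusted p = 0.0152). LOXL2, which crosslinks collagen, differed by -2.52 ± 0.42 (adjusted p = 0.0179) and the metalloproteinase inhibitor TIMP2 by -1.61 ± 0.32 (adjusted p = 0.0301). So proteases, their inhibitors and a crosslinking enzyme were lower side by side.

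The exception was TGM2, tissue transglutaminase, which crosslinks proteins. It stood at 8.51, 7.92, 8.77 and 7.95 in subcutaneous and 10.03, 10.999, 10.63 and 10.42 in gonadal fat, and all 4 gonadal levels lay above all subcutaneous ones (2.23 ± 0.27, adjusted p = 0.00545). Of the 10 genes, 8 also passed without the dog term, 4 without the 4 arrays (PI3, BMP1, LOXL2 and TGM2), 1 with the first actin covariate (PI3) and 4 in every fit without a control dog. Without the 4 arrays MMP2 had an adjusted p of 0.0653.

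**Figure D3:**
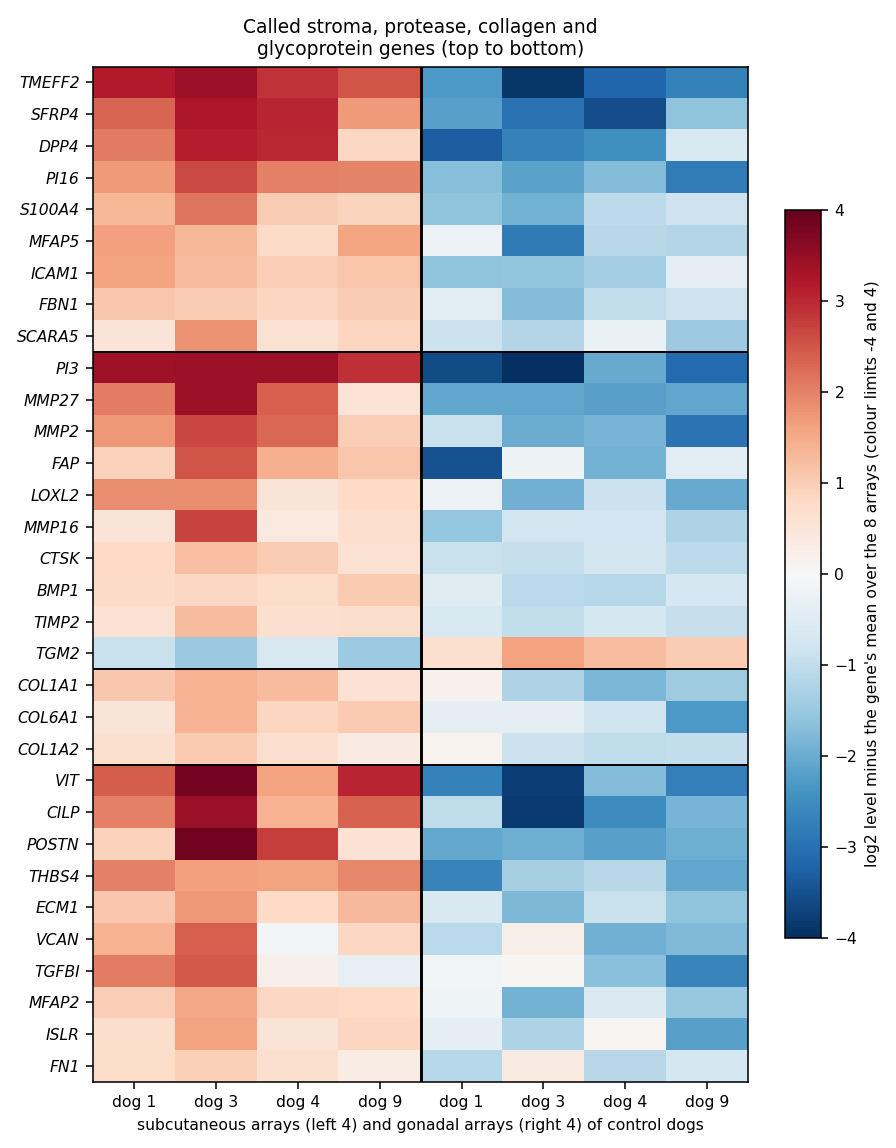
Log2 level of the called members of the progenitor, protease, collagen and glycoprotein lists, minus each gene's mean over the 8 control arrays, with subcutaneous arrays on the left and gonadal arrays on the right. TGM2 alone runs the other way, and TGFBI and VCAN show the spread between dogs, with subcutaneous levels of 6.94 to 9.72 for TGFBI.

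Among genes that passed, PRR15 and C6 had the largest rises in gonadal fat, with group means under the floor set to it. PRR15, a proline-rich protein, stood at 2.81, 2.80, 7.04 and 2.54 in subcutaneous and 9.46, 8.12, 10.63 and 8.81 in gonadal fat. In 3 subcutaneous arrays it lay below the floor, while dog 4 reached 7.04, still below every gonadal array, and the rise was at least 38.2-fold (adjusted p = 0.00201). C6, of the membrane attack complex of complement, stood at 6.29, 7.41, 8.85 and 8.28 and 10.75, 10.32, 12.52 and 12.43, a log2 difference of 3.80 ± 0.45 (adjusted p = 0.00504). Its depots did not overlap, and it passed in every fit without a control dog. PDE8B, which degrades cyclic AMP, stood at 4.30, 3.53, 5.93 and 4.20 and 7.51, 7.21, 7.47 and 8.35 (3.14 ± 0.40, adjusted p = 0.00624). KCNS3, a potassium channel subunit, differed by 2.70 ± 0.42 (adjusted p = 0.0138), and TFPI2, an inhibitor of serine proteases, by 2.65 ± 0.34 (adjusted p = 0.00663). PAWR, a regulator of cell death, differed by 2.61 ± 0.35 (adjusted p = 0.00832).

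ECRG4, the precursor of a secreted peptide, lay at 3.85 to 6.33 in subcutaneous and at 6.88 to 10.44 in gonadal fat (3.11 ± 0.70, adjusted p = 0.0441), and dog 3 differed least, by 0.55. UCHL1, a ubiquitin hydrolase known from neurons, stood at 5.72, 7.21, 6.78 and 3.66 and 7.66, 9.28, 9.51 and 7.99 (2.77 ± 0.51, adjusted p = 0.0249). It was on the list of nerve and Schwann cell genes, of which 1 of 4 tested members passed (25%, against 3.84% of all genes). The mean level of these 4 was 7.76, 8.08, 7.84 and 7.17 in subcutaneous and 8.39, 7.87, 8.80 and 8.28 in gonadal fat, with PMP22, a myelin protein that other cells also make, and S100B, a calcium-binding protein of glia and fat cells, the higher ones. Of the 9 members that were not tested, ERBB3 and MBP reached 6.59 and 5.55, while the other 7 stayed below the floor in all 8 arrays, among them SOX10, NGFR and CDH19 (at most 2.02, 2.01 and 2.69). The part of nerve transcripts in the rise of UCHL1 was not tested. Of the 15 largest rises among genes that passed, 15 also passed without the dog term, and 11 without the 4 arrays. In 14 of the 15 the depots did not overlap, beside 285 of all 332 genes that passed and 13.1% of genes tested. PKHD1L1 was the one with overlap. The call ended when 1 control dog was left out for UCHL1 (adjusted p = 0.0671 without dog 4), and for 6 others, with the highest adjusted p without dog 1: KCNS3 (0.0595), PKHD1L1 (0.0697), ALDH1A2 (0.114), WIF1 (0.124), GPM6A (0.151) and ECRG4 (0.169).

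Mesothelial genes were the list with the highest median, 2.49 log2 units over 16 members. Of these members 6 were higher and 1 was lower in gonadal fat (43.8% called, against 3.84% of all genes). UPK1B, a uroplakin of the mesothelial surface, stood at 3.13, 2.78, 5.57 and 2.68 in subcutaneous and 6.90, 6.10, 8.61 and 7.28 in gonadal fat, at least 9.33-fold higher (adjusted p = 0.00168). UPK3B stood at 3.66, 3.65, 7.08 and 2.77 and 7.51, 4.59, 8.38 and 6.68 (2.50 ± 0.58, adjusted p = 0.0469). For UPK1B every gonadal array lay above every subcutaneous one, but for UPK3B the subcutaneous array of dog 4 lay above the gonadal arrays of dogs 3 and 9. GPM6A, a membrane glycoprotein found on mesothelium and neurons, differed by 3.51 ± 0.75 (adjusted p = 0.0371), and PKHD1L1, a fibrocystin-like receptor, by 3.04 ± 0.49 (adjusted p = 0.0149). C3 and ALDH1A2, described further on, are the other 2 that were higher. The lower one was KRT7, a keratin of simple epithelia and mesothelium, at 9.67, 9.76, 9.85 and 9.97 in subcutaneous and 8.29, 4.02, 7.73 and 6.59 in gonadal fat (-3.16 ± 0.73, adjusted p = 0.0463). Its subcutaneous level was alike in all 4 dogs, including dogs 1, 3 and 9, where the list as a whole was low.

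EPCAM, KRT8 and KRT18 did not pass in control dogs, and in each the subcutaneous array of dog 4 stood far above the other 3. EPCAM, the epithelial adhesion molecule, stood at 3.39, 3.19, 12.91 and 3.40 in subcutaneous and 10.95, 9.83, 11.74 and 11.44 in gonadal fat (5.26 ± 1.34, adjusted p = 0.0626). In dogs 1, 3 and 9 the gonadal array was over 6 log2 units above the subcutaneous one, and in dog 4 it was below it. KRT18, a keratin of simple epithelia, stood at 3.93, 4.30, 11.48 and 4.84 and 9.72, 9.06, 11.46 and 9.68 (3.84 ± 0.93, adjusted p = 0.0543). KRT8, its partner, stood at 4.03, 4.32, 9.93 and 4.33 and 8.18, 6.64, 10.01 and 7.67 (2.48 ± 0.80, adjusted p = 0.111), and in both keratins the 2 arrays of dog 4 were close to each other. The list means of simple epithelium, 4.65, 4.17, 9.37 and 4.72 in subcutaneous fat and 7.81, 6.59, 8.49 and 7.48 in gonadal fat, likewise placed the subcutaneous array of dog 4 above all others. CLDN4, a tight junction protein, was the 1 of 8 tested simple epithelial genes that passed (12.5%, against 3.84% of all genes). It stood at 5.11, 2.85, 5.46 and 4.63 and 8.29, 4.45, 7.87 and 5.72 (2.07 ± 0.38, adjusted p = 0.0247), with overlapping depots. The filter left 18 other members of this list untested, and 8 of these reached the floor in a control array (MUC1 at most 8.29). Without the 4 arrays and without the dog term, 4 of the 8 tested members were higher in gonadal fat and the median moved from 1.56 to 2.27. For the mesothelial list that fit gave 7 higher and 0 lower, and a median of 2.95.

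The mesothelial list mean was 6.13, 6.09, 7.95 and 6.19 in subcutaneous fat and 8.08, 7.82, 8.89 and 7.86 in gonadal fat. Every other subcutaneous array lay below all gonadal ones, and that of dog 4 lay inside their range. OVGP1, the oviduct glycoprotein on the list of ciliated epithelium, was high in the subcutaneous array of dog 4 alone, at 4.60, 4.57, 9.94 and 4.78 in subcutaneous and 4.57, 5.62, 4.52 and 4.59 in gonadal fat. Of the 4 ciliated genes tested and the 3 of skin and mammary epithelium 0 passed (1 and 1 at an unadjusted p under 0.05), while KRT1, KRT10, KRT17, TP63 and the milk gene CSN2 stayed below the floor in all 8 arrays. The filter left 23 ciliated genes untested, and 16 of these reached the floor in a control array. Among them TEKT1 and RSPH1 reached 9.45 and 9.00. How far the epithelial and muscle transcripts of dogs 3 and 4 set the depot differences beyond the fits given here was not tested.

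Positional transcription factors passed in 5 of 19 members tested, 3 higher and 2 lower in gonadal fat (26.3%, against 3.84% of all genes). ALX1, a homeobox gene of mesenchyme, stood at 3.21, 3.16, 5.09 and 3.17 in subcutaneous and 6.56, 8.43, 7.05 and 6.99 in gonadal fat, at least 9.56-fold higher (adjusted p = 0.00601). GATA6, a zinc finger factor of visceral mesoderm, stood at 3.21, 4.28, 3.92 and 3.80 and 6.28, 7.39, 5.86 and 5.68, at least 4.93-fold higher (adjusted p = 0.00328). TCF21, a factor of visceral mesenchyme, stood at 2.71, 2.67, 2.72 and 2.68 and 3.57, 5.88, 5.27 and 4.97, at least 1.9-fold higher (adjusted p = 0.0223). For these 3 genes the depots did not overlap, as in 285 of all 332 genes that passed. TCF21 was below the floor in every subcutaneous array. The paired-related homeobox genes PRRX1 and PRRX2, factors of limb and body wall mesenchyme, were lower in gonadal fat. PRRX1 stood at 9.83, 10.90, 10.79 and 10.26 and 8.77, 8.33, 7.13 and 8.15 (-2.34 ± 0.41, adjusted p = 0.0212), and PRRX2 differed by -1.31 ± 0.26 (adjusted p = 0.0285). All 5 also passed without the dog term, 3 without the 4 arrays (ALX1, GATA6 and TCF21), 1 with the first actin covariate (ALX1), and 2 in every fit without a control dog (ALX1 and GATA6). The patterning factors TBX15, SHOX2 and IRX2 missed the filter on low values, were not tested and reached at most 4.64, 4.48 and 4.02 in the 8 arrays.

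HOX genes were higher in gonadal fat in 2 of 8 members tested and lower in 0 (25%, against 3.84% of all genes). HOXB7 had log2 levels of 7.44, 6.61, 7.35 and 7.55 in subcutaneous and 8.15, 8.76, 8.36 and 8.75 in gonadal fat (1.27 ± 0.28, adjusted p = 0.0429). HOXA5 stood at 9.40, 9.47, 9.86 and 9.53 and 10.15, 11.11, 10.46 and 10.53 (1.00 ± 0.22, adjusted p = 0.043). Neither overlapped between depots, and both also passed without the dog term and without the 4 arrays. Only HOXA5 passed with the first actin covariate, and neither gene passed in every fit without a control dog. HOXD10, of the posterior end of its cluster, lay at 2.58 to 2.67 in subcutaneous fat and at 6.12, 2.70, 5.94 and 4.64 in gonadal fat, and missed the threshold at an adjusted p of 0.0841. HOXA7 differed by 0.69 ± 0.38 (adjusted p = 0.304). Retinoic acid, made from vitamin A, sets HOX expression in the embryo, and 2 of 17 tested genes of retinoid handling were higher in gonadal fat (11.8%). Both make retinoic acid from retinal. ALDH1A2 stood at 3.42, 3.40, 4.12 and 3.41 and 6.19, 8.81, 7.44 and 4.70, at least 6.89-fold higher (adjusted p = 0.0352), and ALDH1A1 at 10.17, 10.71, 11.46 and 10.67 and 12.13, 12.17, 11.79 and 12.22 (1.33 ± 0.30, adjusted p = 0.0459). Neither passed without the 4 arrays (adjusted p of 0.0665 and 0.214). The retinoic acid receptor gene RARB differed by 1.15 ± 0.40 (adjusted p = 0.132).

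Complement genes passed in 4 of 22 members, 2 in each direction (18.2%, against 3.84% of all genes). C3, the central component, on which the cascade turns, stood at 11.20, 10.55, 12.90 and 12.32 in subcutaneous and 14.25, 13.74, 15.17 and 13.95 in gonadal fat, a log2 difference of 2.54 ± 0.25 (adjusted p = 0.00248). All 6 of its probe sets tested were called higher, and together with C6 it passed in every fit without a control dog. C1S, a protease of the classical pathway, was lower in gonadal fat (-1.34 ± 0.23, adjusted p = 0.0207). So was C5AR1, the receptor for the C5a fragment, at 7.41, 7.06, 6.02 and 6.78 and 4.69, 3.49, 4.96 and 5.31 (-2.20 ± 0.50, adjusted p = 0.0448). No depots overlapped in these 4 genes, as in 285 of all 332 genes that passed, and the median of the list was -0.54.

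Among secreted signals, Wnt genes passed in 4 of 19 members, 2 in each direction (21.1%, against 3.84% of all genes). WIF1, a secreted Wnt inhibitor, stood at 9.12, 10.66, 13.33 and 9.53 in subcutaneous and 13.96, 13.99, 13.70 and 13.69 in gonadal fat (3.17 ± 0.63, adjusted p = 0.0301). The gonadal levels were alike in all 4 dogs, and the subcutaneous array of dog 4 was close below them. RSPO1, which strengthens Wnt signalling, stood at 2.34, 2.32, 3.05 and 2.32 and 4.71, 6.27, 6.73 and 3.60, at least 2.52-fold higher (adjusted p = 0.0137). In the other direction were SFRP4, given above, and DKK2, another secreted inhibitor (-2.76 ± 0.65, adjusted p = 0.0498). So of the inhibitors that passed 1 was higher and 2 were lower, and the median of the list was 0.50. The widest rise of the list, 3.81, was that of SFRP2, of the same family as SFRP4, and it did not pass. Of the 19 members 13 had a positive difference.

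FGF9, a growth factor of mesothelium and mesenchyme, was the 1 of 16 FGF genes that passed (6.25%, against 3.84% of all genes). It stood at 2.89, 2.83, 4.09 and 2.76 in subcutaneous and 6.25, 6.25, 8.39 and 6.36 in gonadal fat, at least 7.02-fold higher (adjusted p = 0.00601), with no overlap, and passed in every fit without a control dog. FGF1, the acidic fibroblast growth factor, had levels of 7.09, 4.39, 5.49 and 6.57 and 8.69, 6.78, 7.72 and 7.85 and missed the threshold (1.87 ± 0.48, adjusted p = 0.064). The IGF-binding proteins split, with IGFBP3 at 1.37 ± 0.28 (adjusted p = 0.0307) and IGFBP6 at -1.57 ± 0.26 (adjusted p = 0.0164), 2 of 13 IGF genes and the ones that passed (15.4%). Of 26 genes of TGF-beta, activin and BMP signalling, FSTL1 alone passed, a follistatin-like secreted protein (-1.65 ± 0.34, adjusted p = 0.0324), a share near that of all genes. BMP7 stood at 8.48, 8.15, 7.74 and 8.40 and 5.71, 5.52, 7.99 and 5.29, where dog 4 was the highest gonadal and the lowest subcutaneous array (-2.06 ± 0.56, adjusted p = 0.0718).

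Of 17 adipokine genes, 1 was higher and 1 lower in gonadal fat (11.8%, against 3.84% of all genes). AGT, angiotensinogen, stood at 3.07, 2.05, 3.86 and 4.36 in subcutaneous and 7.51, 3.74, 7.96 and 5.80 in gonadal fat, at least 4.77-fold higher (adjusted p = 0.0275), with overlapping depots, since dog 3 was below the floor in both. METRNL, a hormone-like protein of fat and muscle, stood at 8.41, 8.95, 7.75 and 8.43 and 6.28, 5.40, 7.17 and 6.29 (-2.10 ± 0.47, adjusted p = 0.0428). Resistin, RETN, missed the threshold (-1.76 ± 0.48, adjusted p = 0.0754). Leptin, LEP, which signals fat mass, stood at 9.55, 7.37, 9.93 and 8.99 and 10.52, 7.36, 11.16 and 9.39 (0.65 ± 0.36, adjusted p = 0.308), and its 2 depots overlapped.

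Of 30 genes of adipocyte identity and lipid storage 0 passed (limma, 7 at an unadjusted p under 0.05), while 27 had a positive difference and the median was 0.73 log2 units, against 0.02 over all genes. LPL, which frees fatty acids from lipoproteins, stood at 13.10, 12.75, 12.45 and 13.42 and 14.13, 13.13, 13.61 and 13.75 (0.73 ± 0.30, adjusted p = 0.181). GPAM, which starts triglyceride synthesis, differed by 2.12 ± 0.89 (adjusted p = 0.193) and TMEM120A, a membrane protein of fat cells, by 1.44 ± 0.45 (adjusted p = 0.104). Without the 4 arrays and the dog term the median of the list was 0.29, under the 0.73 of all arrays, and again 0 passed. Fewer of these differences were positive with the actin signal as a covariate. With the first actin covariate 5 of the 30 were positive and the median was -0.26, and with the other 5' probe set 18 were and it was 0.08, against -0.01 and 0.04 over all genes. The log2 difference of LPL was -0.10 and 0.08 in those fits. The list means were lowest in dog 3 in either depot.

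ACADL, an acyl-CoA dehydrogenase of fatty acid oxidation, was the 1 of 29 genes of lipolysis and oxidation that passed (3.45%, near the 3.84% of all genes), at 5.07, 4.61, 4.49 and 5.20 in subcutaneous and 6.85, 5.21, 6.17 and 5.82 in gonadal fat (1.17 ± 0.24, adjusted p = 0.0311). The nuclear receptor PPARA, which turns oxidation genes on, had levels of 5.35, 3.58, 4.87 and 4.29 and 6.24, 4.99, 7.07 and 6.45 and missed it (1.67 ± 0.50, adjusted p = 0.0932). Of 19 genes of fatty acid and glycerol synthesis 0 passed (2 at an unadjusted p under 0.05), with FASN at 1.11 ± 0.50 (adjusted p = 0.218) and PCK1, of glycerol synthesis, at 1.27 ± 0.42 (adjusted p = 0.115). Of 34 subunits of oxidative phosphorylation 0 passed (5 at an unadjusted p under 0.05) and 31 had a positive difference, with a median of 0.21. With the actin covariates 12 and 24 of the 34 were positive, with medians of -0.03 and 0.11. For the 29 genes of lipolysis and oxidation 24 were positive without the covariate, and 12 and 19 with it. Cholesterol synthesis (16 tested), thermogenic genes (7) and steroid receptors and conversion (15) had 0 calls each, with 4, 0 and 8 genes at an unadjusted p under 0.05. UCP1, the uncoupling protein of brown fat, reached at most 2.08 in the 8 arrays. The oestrogen receptor ESR1 stood at 4.09, 4.27, 6.81 and 5.01 and 6.70, 7.25, 7.49 and 6.11 (1.84 ± 0.46, adjusted p = 0.0603), with dog 4 the highest in both depots.

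Of 29 macrophage genes 2 were lower and 0 higher in gonadal fat (6.9%, against 3.84% of all genes), and 28 had a negative difference (median -0.82). The 2 were MRC1, the mannose receptor of tissue macrophages (-1.84 ± 0.40, adjusted p = 0.0405), and the lysosomal protease CTSS (-1.30 ± 0.28, adjusted p = 0.0374). GPNMB, a glycoprotein of lipid-laden macrophages, had the widest gap of the list, at 11.27, 12.05, 10.69 and 10.23 in subcutaneous and 5.57, 4.99, 7.07 and 6.87 in gonadal fat. Its depots did not overlap, yet it missed the threshold (-4.94 ± 1.19, adjusted p = 0.0529). Of 14 chemokines and receptors CCL19 passed (7.14%), a chemokine that attracts T cells and dendritic cells. It was below the floor in all gonadal arrays (2.64 to 3.40) and stood at 5.69, 5.66, 4.91 and 7.99 in subcutaneous fat, at least 4.17-fold lower (adjusted p = 0.0133). The remaining chemokine values were negative too, except CCL21, of lymphatic vessels, at 4.33, 8.86, 7.88 and 5.03 and 8.91, 9.91, 9.49 and 10.38 (3.14 ± 0.82, adjusted p = 0.0657).

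Of 24 inflammation genes 2 were lower (8.33%, against 3.84% of all genes), the prostaglandin E synthase PTGES and ICAM1. PTGES stood at 11.38, 12.19, 11.41 and 11.68 in subcutaneous and 9.53, 7.79, 8.40 and 8.11 in gonadal fat (-3.20 ± 0.39, adjusted p = 0.00545), and it passed in each fit without a control dog, without the dog term, without the 4 arrays and with the first actin covariate. The cytokines TNF, IL6 and IL1B reached at most 2.66, 3.44 and 4.04 in the 8 arrays and were not tested. IFI6 was the 1 of 17 interferon genes that passed (5.88%), higher in gonadal fat (1.08 ± 0.22, adjusted p = 0.0304). Lymphocyte (6 tested) and mast cell (4 tested) genes had 0 calls, with 2 and 1 at an unadjusted p under 0.05.

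Of 17 genes of the unfolded protein and amino acid stress response, 3 were lower in gonadal fat (17.6%, against 3.84% of all genes). DDIT3, the stress factor CHOP, stood at 8.24, 7.29, 7.39 and 6.18 and 5.12, 6.04, 5.62 and 5.84 (-1.62 ± 0.35, adjusted p = 0.0393). ATF4, which turns it on, differed by -0.65 ± 0.15 (adjusted p = 0.0468), and SDF2L1, a protein of the endoplasmic reticulum, by -1.28 ± 0.30 (just under the threshold). The chaperone HSPA5 missed the threshold (-0.74 ± 0.20, adjusted p = 0.0728), and 0 of the 3 passed without the 4 arrays. Immediate early genes (18 tested), the clock (11), hypoxia (16) and proliferation (13) had 0 calls, with 5, 7, 3 and 3 genes at an unadjusted p under 0.05. PER3, of the circadian clock, stood at 4.07, 4.16, 4.69 and 4.96 and 6.01, 5.50, 6.04 and 4.84 (1.13 ± 0.29, adjusted p = 0.065, and 0.0369 without the dog term). FOS, which rises within minutes of handling tissue, stood at 10.67, 8.74, 9.39 and 9.29 and 11.42, 11.71, 11.57 and 14.17, highest in the gonadal array of dog 9 (2.69 ± 0.83, adjusted p = 0.0993).

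Of the vessel wall, RGS5, a marker of pericytes, was the 1 of 19 pericyte and smooth muscle genes that passed (5.26%, against 3.84% of all genes). It stood at 5.98, 5.92, 5.47 and 6.71 in subcutaneous and 9.00, 6.99, 8.53 and 8.22 in gonadal fat (2.16 ± 0.48, adjusted p = 0.0411). The list had a median of 1.58 and 18 positive differences, and its mean level was 7.82, 7.68, 8.82 and 7.79 in subcutaneous fat and 9.03, 10.88, 8.59 and 9.38 in gonadal fat. The gonadal array of dog 3 stood highest there, as in PGM5, a protein of smooth muscle junctions, at 7.28, 8.17, 9.19 and 8.05 and 9.74, 13.03, 9.46 and 9.60 (2.28 ± 0.56, adjusted p = 0.0556). Of 30 endothelial genes VCAM1, an adhesion molecule, was lower, 3.33% of the list (-1.37 ± 0.30, adjusted p = 0.0393). Neither RGS5 nor VCAM1 passed without the dog term (adjusted p of 0.0597 and 0.0832). Skeletal muscle genes had a median of -1.73 over 23 members, which was 0.31 without the 4 arrays, and only MYBPC1 passed (4.35%). The fast muscle troponin TNNI2 was high in the subcutaneous arrays of dogs 3 and 4 alone, at 1.95, 14.31, 11.87 and 1.93 in subcutaneous and 1.90, 1.97, 2.24 and 1.92 in gonadal fat.

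**Figure D4:**
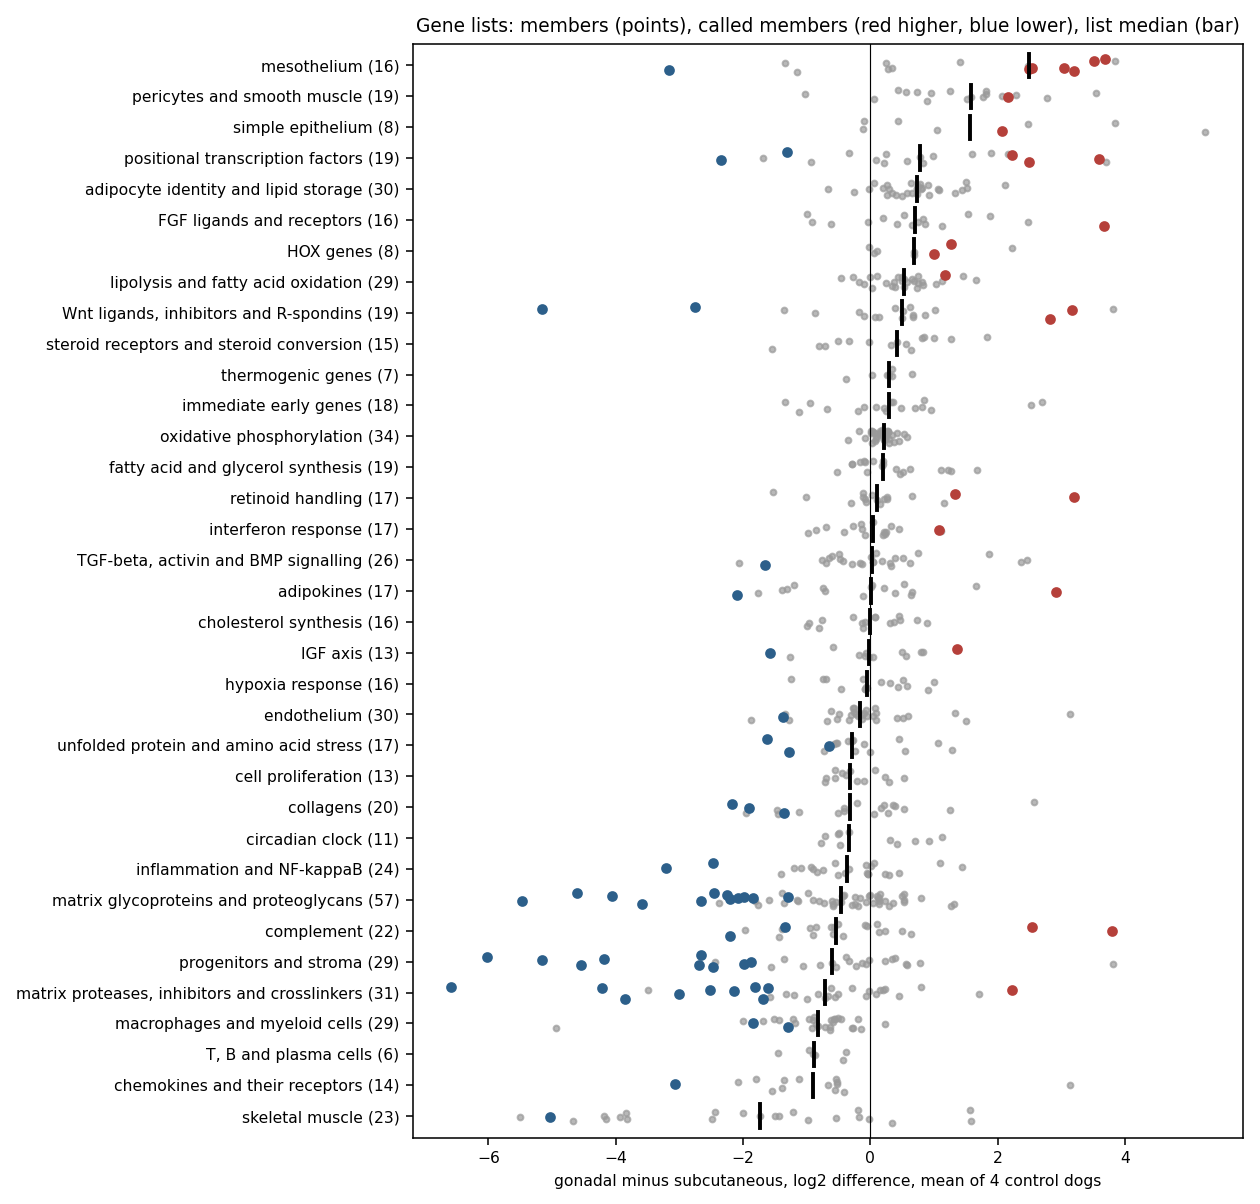
Log2 difference, gonadal minus subcutaneous, of each tested member of the lists with at least 5 tested members, with the number tested in brackets. Red and blue points passed as higher and lower, and black bars are list medians, from -1.73 for skeletal muscle to 2.49 for mesothelium.

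The 5 ad libitum dogs are other animals and give a second set of depot differences, though the fit shares its spread between the groups and both have the same division of depots between submissions. There 762 of 8656 genes passed (8.8%). Of the 332 control genes 323 had the same sign in ad libitum dogs (97.3%, against 65.4% of all genes tested). In both groups 156 passed, 47.0% of the control calls and 20.5% of the ad libitum calls, with 0 of opposite sign. PI3 differed by -5.23 ± 0.36 there (adjusted p = 0.000207), FNDC1 by -3.81 ± 0.33 (adjusted p = 0.000689) and PTGES by -2.12 ± 0.35 (adjusted p = 0.00938). Higher in gonadal fat there were C6 (4.66 ± 0.41, adjusted p = 0.000719), C3 (3.98 ± 0.22, adjusted p = 0.000115) and TGM2 (1.77 ± 0.24, adjusted p = 0.00433). Of the 15 largest falls and the 15 largest rises among genes that passed in control dogs, 11 and 14 also passed there.

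EPCAM and KRT18, which missed the threshold in control dogs, passed in ad libitum dogs as higher in gonadal fat (adjusted p of 0.00614 and 0.00267), and neither passed in the test of the difference between the feeding groups (adjusted p of 0.592 and 0.482). The array with ciliated epithelium transcripts was gonadal in ad libitum dogs (dog 6, 4.52 above the median array). In control dogs it was subcutaneous (dog 4, 3.30 above). The part of these arrays in the 2 outcomes was not tested. UCHL1 differed by 2.77 ± 0.51 in control dogs and by 0.17 ± 0.46 in ad libitum dogs (adjusted p = 0.847). The adipocyte list, with a median of 0.73 in control dogs, had one of -0.11 in ad libitum dogs. For oxidative phosphorylation the medians were 0.21 and -0.33, and neither contrast of medians was tested.

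No depot difference passed as particular to control dogs. The depot difference of control dogs against that of ad libitum dogs passed in 0 of 21484 probe sets (0%, limma), with 2154 at an unadjusted p under 0.05 and a smallest adjusted p of 0.312. The 5 genes with the smallest p in that test were LOC479761, CDK12, LOC491883, NUDT22 and PCSK1. CDK12, a kinase of transcription, differed by -0.96 ± 0.15 in control dogs and 0.32 ± 0.13 in ad libitum dogs, and LOC479761 by -1.02 ± 0.13 and 0.11 ± 0.11. PCSK1, which cuts prohormones, differed by -0.22 ± 0.23 and -2.01 ± 0.21, NUDT22 by 0.10 ± 0.14 and -1.02 ± 0.12, and LOC491883 by -0.79 ± 0.14 and -1.95 ± 0.13. For UCHL1 the difference between the feeding groups was -2.60 ± 0.68 (adjusted p = 0.421), and for TMEM120A, at -0.71 ± 0.40 in ad libitum dogs, it was -2.15 ± 0.60 (adjusted p = 0.428).

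**Figure D5:**
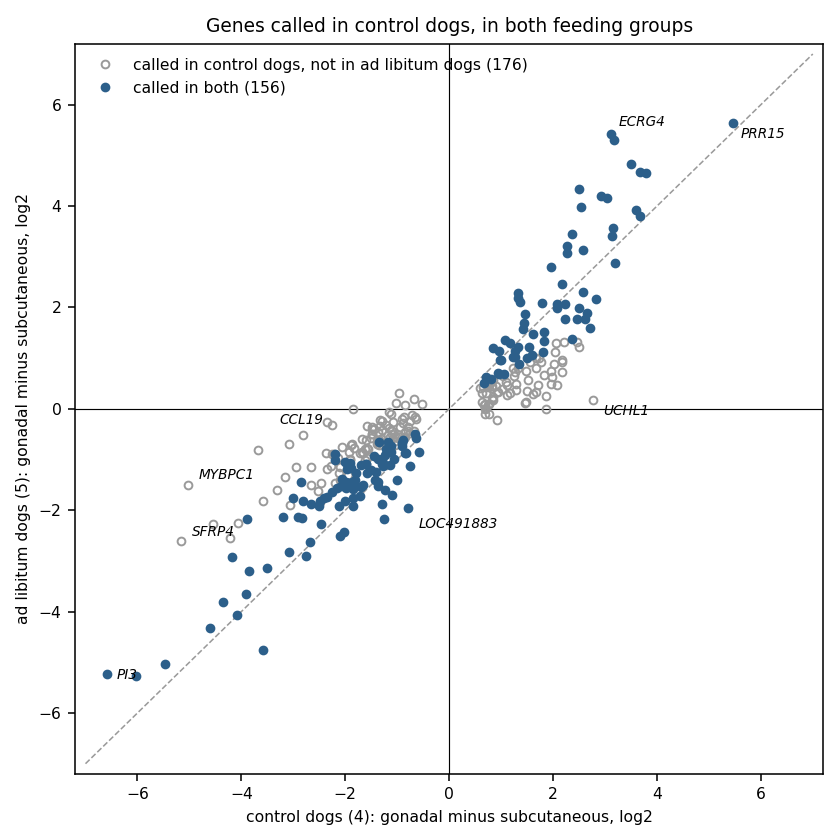
Log2 difference between gonadal and subcutaneous fat in control dogs (x axis, 4 pairs) and ad libitum dogs (y axis, 5 pairs) for the 332 genes called in control dogs, with the dashed line at equal differences. Filled points are the 156 genes called in both groups, and 323 of the 332 lie in a quadrant of equal sign.

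Of the 24 genes that passed in all 4 fits named above, a set picked after its values were seen, 15 have been described: C3, HOXA5, PRR15, PDE8B, KCNS3, UPK1B and ALX1, which were higher in gonadal fat, and IGFBP6, MFAP5, PI3, PTGES, FNDC1, PI16, CILP and VIT, which were lower. The eighth higher gene was CITED2, a co-regulator of transcription, at 7.49, 8.16, 6.91 and 6.97 in subcutaneous and 9.27, 9.94, 8.80 and 8.85 in gonadal fat (1.83 ± 0.17, adjusted p = 0.00201). Its 4 gonadal arrays lay above all subcutaneous ones. DDR2, a receptor tyrosine kinase that binds collagen, was lower in gonadal fat, at 9.57, 10.01, 8.84 and 9.62 and 7.16, 7.30, 8.22 and 7.41 (-1.99 ± 0.30, adjusted p = 0.0124). FGL1, a secreted fibrinogen-like protein, differed by -2.91 ± 0.37 (adjusted p = 0.00649) and the transcription factor NFATC2 by -2.26 ± 0.42 (adjusted p = 0.0248). FAM20A, of the secretory pathway, was at least 3.09-fold lower (adjusted p = 0.0252) and ILDR2 at least 2.99-fold lower (adjusted p = 0.0138). CHN2 (-1.34 ± 0.16), DNM1 (-2.01 ± 0.27) and LOC479668 (-3.08 ± 0.42) complete the lower 16.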

How the data were processed

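Arrays of the Affymetrix canine platform were deposited as 1 log2 value per probe set and array. Per the submitters' processing notes the authors made these log2 values with GCRMA, a background correction and summary that draws on probe sequence; the sources used here name no version, log base or genome build for it. The base was taken as 2 from the range of the values. From 42924 probe sets without array controls, the 21484 with log2 of at least 4 in at least 4 of 18 arrays were tested. Names came from the platform annotation, updated through gene identifiers (29254 probe sets with 1 symbol, 439 with several, 13231 with none), and 1 probe set per symbol, the one with the highest mean over 18 arrays, stood for a gene (8656 genes).

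Each probe set was fitted with limma 3.58.1 in R 4.3.3, over all 18 arrays, with a term for each dog and a depot difference for each feeding group (7 residual and 2.66 prior degrees of freedom). Benjamini-Hochberg adjustment ran over all 21484 probe sets, with a threshold of 0.05. Pairing came from the animal number in the labels, so both arrays of a number were taken as the same dog. Across probe sets, deviations of a control dog's 2 arrays from their group means correlated at 0.26, 0.18, -0.05 and 0.08 for dogs 1, 3, 4 and 9. The gonadal arrays of dogs 1 and 9 correlated most with the subcutaneous array of their own number. That of dog 3 correlated most with dog 4 (0.22), and that of dog 4 with dog 9 (0.16). Each p-value of this fit rests on the spread of the depot difference between dogs, pooled over both feeding groups. The small number of dogs limits the precision. A group mean under log2 4 was set to 4 for a fold, given as "at least". Other fits changed the dog term, filter, normalization, moderation, actin covariate and the arrays included.

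Named genes are the 15 largest rises and 15 largest falls among genes that passed, list members that passed or had the smallest p, genes that vary most where an array stands apart, and the 5 with the smallest p between feeding groups. ADIPOQ, LEP and 9 genes that passed in 4 fits were added after their values were seen. Members and lists were chosen with earlier results of these data known. The share of a list that passed, set beside that of all genes, is therefore a description and not a test.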

Additional observations from a re-analysis of the deposited data

Results flagged for a closer look

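In some groups of 4 control arrays 1 array stood apart, with a gap to its nearest neighbour that, as a share of the group's whole range, exceeded the critical value of Dixon's test. Chance gives this in about 1 in 20 groups, and each gene and list described was examined in both depots. With that many groups a number of flags come from chance alone, and whether there were more than that was not tested.

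The subcutaneous array of dog 4 was the array apart most often. The share of the range taken by its gap was 0.979 for EPCAM (12.91 against 3.20 to 3.40), 0.961 for OVGP1, 0.949 for KRT8 and 0.879 for KRT18. For the mean of the simple epithelium list it was 0.895, for the mesothelium list 0.944 and for pericytes and smooth muscle 0.878. Among genes called as higher in gonadal fat it was 0.976 for ALX1, 0.971 for RSPO1, 0.970 for ALDH1A2, 0.939 for PRR15, 0.904 for FGF9 and 0.845 for UPK1B. In each of these the array of dog 4 was the highest of the 4 subcutaneous ones, the same array that carried ciliated epithelium and muscle transcripts. Their part in these levels was not tested. Among the called genes, RSPO1 lay below the floor in all 4 subcutaneous arrays (at most 3.05). In the other called genes only the subcutaneous array of dog 4 lay above the floor.

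The gonadal array of dog 4 was highest for FGF9 (0.946, at 8.39 against 6.25 to 6.36) and for BMP7 (0.844) and lowest for MMP27 (0.869), where all 4 values lie below the floor. The gonadal array of dog 3 was highest for OVGP1 (0.937), PGM5 (0.920, at 13.03 against 9.46 to 9.74) and KCNS3 (0.863) and lowest for PMP22 (0.934). That of dog 9 was highest for FOS (0.896), CCBE1 (0.861) and GDF9 (0.834), and that of dog 1 for COL1A2 (0.868). Among subcutaneous arrays dog 9 was lowest for PI3 (0.887, at 13.24 against 13.72 to 13.79) and highest for the oxidative phosphorylation list (0.943), while dog 3 was highest for MMP16 (0.869).

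CDK12 had depot differences of opposite sign in the 2 feeding groups. All 4 control dogs were lower in gonadal fat, with pair differences of -1.25, -0.75, -0.94 and -0.92, and all 5 ad libitum dogs had positive differences, of 0.01 to 0.60. The depot difference of ad libitum dogs minus that of control dogs was 1.28 on the log2 scale, with an adjusted p of 0.312 (limma, over 21484 probe sets), which misses the threshold.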

How the results depend on the processing

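The number of calls moved with the fit. The 821 probe sets (320 higher, 501 lower) became 1346 (575 and 771) with the dog as a random effect, 627 (236 and 391) with no replicate block, 237 (84 and 153) with no filter on low values, and 127 (44 and 83) from the 8 control arrays alone, which leave 3 residual degrees of freedom. The actin covariate gave 110 (51 and 59), and with the other 5' actin probe set 0 (0 and 0). Without the dogs of the 4 arrays that stood apart 40 (24 and 16) passed, and without only those arrays, with no dog term, 341 (171 and 170). Leaving out 1 dog at a time gave 182 to 1466 calls, 54 to 670 higher and 101 to 796 lower. In ad libitum dogs 1832 probe sets passed: 1132 with no filter, 2896 with the actin covariate, 459 without the dogs of the 4 arrays, 1545 with no replicate block, and 508 to 1990 without 1 dog. The difference between feeding groups gave 0 in each fit.

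The naming rule gave 197 genes, of which 87 were called. Of these, 83 kept the call after a second quantile normalization, 86 after centring and 87 with trended and robust moderation. With no replicate block 68 kept it, with no filter 30, with the actin covariate 17 and without 1 control dog 34 to 54. Without the 4 arrays and the dog term 44 kept it, and from the 8 control arrays alone 24. Without the dogs of the 4 arrays 11 kept it, and with the other 5' actin probe set 0 did. In each of these fits 0 reversed. Fits that change only the dog term, the filter or the moderation leave a gene's difference as it is, so no sign could turn there. Among genes that did not pass signs did turn, as for LPL, at 0.73 in the main fit and -0.10 with the actin covariate. The actin 3' minus 5' difference of -1.84 ranged from -2.37 to -1.39 without 1 dog, was -0.75 with the other 5' probe set and was -0.20 for GAPDH. The cause of these changes was not tested. With 4 pairs no exact permutation p can be under 0.125, and GCRMA levels near the floor carry little signal over background.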
